A study of Sus scrofa domesticus with 9 samples.

Results

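The cytosolic ribosomal protein genes were examined in the lungs of pigs fed a standard or an increased dose of cholecalciferol, which is vitamin D3. They were taken by name from the authors' table of normalized counts, as genes whose symbol begins with RPL or RPS and a digit, or is RPLP0, RPLP1, RPLP2 or RPSA, without the kinases of the RPS6K family. The rule found 56 of the 35670 genes in the table. Of these, 24 encode standard proteins of the large subunit and 26 standard proteins of the small subunit. The others are the paralogs RPL3L, RPL7L1, RPL10L, RPL26L1 and RPS27L, and RPS19BP1, which matches the rule by its letters but encodes a protein that binds RPS19 and is not part of the ribosome. Of the 56 genes, 55 had a mean over 20 normalized counts and were tested. RPL10L, which in human is a testis paralog of RPL10, did not, with at most 1 read in any library. RPLP2 has no name in the table, nor do 18 other genes that encode ribosomal proteins, so these 19 were not members and are described separately.

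Lung RNA came from 9 pigs, with 1 library per animal and no pooled animals. All are labelled female, and the methods of the study say the same, but a passage of its discussion gives the sequenced animals as male. The 4 animals of the standard group (replicates 9, 17, 33 and 41) ate grower feed with 2000 IU of the vitamin per kg and then finisher feed with 1500 IU per kg. The 5 animals of the increased-dose group (replicates 3, 19, 27, 51 and 59) were given 3000 and then 2500 IU per kg. Both feeds were given for 88 days and otherwise were the same, and no group went without cholecalciferol. Tissue was cut from the upper lobe of the left lung at slaughter, so each library is a mixture of cells. The ages of the animals are not given in the sources used here.

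The ribosome is built from ribosomal RNA and one copy of most of these proteins, and a growing cell spends much of its transcription on them. Their mRNAs belong to the TOP class, named for a run of pyrimidines, C and T, that begins the transcript. In mammals this run lets mTORC1, through LARP1, raise or lower the translation of the whole class together. Because they are abundant and used in every cell, several of the genes serve as reference genes in quantitative PCR, and RPS29 had this role in the study.

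The start of the transcript is shown for 5 members in which a run of at least 8 pyrimidines lay over the RefSeq start site, and for RPL3 and the paralog RPL26L1, which had shorter runs. Each sequence is read 5′ to 3′ on the strand of the gene and holds the 15 bases before the start and the first 15 bases of the transcript, from the RefSeq annotation of Sscrofa11.1. The capitals mark the longest unbroken run of C and T.
RPL26, chr12:53553439-53553468, minus strand: gacgactgtggTTCTCTTCCCTTTTgcggc
RPL7, chr4:62602415-62602444, plus strand: cgcatgcgctaaCTTCCTCTTTCCCggctg
RPS4X, chrX:58155165-58155194, minus strand: ccgcggaCCTTCTTTTCTCCgcgcgccgga
RPLP0, chr14:40223929-40223958, minus strand: cggcgtacagCCCTCCTCTCgccaggcgtc
RPS28, chr2:70954758-70954787, minus strand: ggcacgtgaCTCCTCTCCgccagaccaccg
RPL26L1, chr16:51276678-51276707, minus strand: ggaagcctcaCTTCCggccctgagcagcgc
RPL3, chr5:8922682-8922711, plus strand: gccagTCTgggatttatatatcgcacgcct
The run was 14 bases in RPL26 and 5 in RPL26L1, so the 2 paralogs differed at the start. All 56 members were matched to RefSeq. A run of 8 or more lay somewhere in the window of 21 of them (37.5%) and over the start itself in 14 (25%), where the shares of all 19560 protein-coding genes were 12% and 4.78%. Among the 31 standard members whose start rests on a curated transcript, 12 had the run over the start (38.7%), against 158 of 3963 genes with a curated transcript (3.99%). Short motifs of this kind, which share letters with one another, were searched on the transcript strand only. The letters CTTTTC were in the window of 2 members (3.57%) and of 1.04% of all genes. For CTTTCC these were 4 members (7.14%) and 1.10%, for the order CCTTTC they were 3 (5.36%) and 1.00%, and for the longer CTCTTTC they were 3 (5.36%) and 0.348%. At least 1 of them was present in 8 members (14.3%) and in 2.88% of all genes. These starts lay a median of 146.5 bases from the gene starts in the authors' annotation, and 25 of 56 were within 100 bases, so some windows may miss the true start.

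The QuantSeq 3′ mRNA-Seq method yields about one fragment per transcript near its 3′ end, so counts were not divided by gene length. In the deposited values each library is scaled by its own DESeq2 size factor. Undoing this scaling gave whole reads, within 0.01 of a read, for 100.0% of values in every library, and the recovered reads in genes came to 4253502 to 5411543 in the standard group and 4427608 to 5919294 in the increased-dose group. Across genes, 2 libraries stood apart. The median Spearman correlation with the other libraries was 0.751 for standard dose replicate 9 and 0.831 for standard dose replicate 41, where the other 7 libraries had 0.912 to 0.933. The markers of type 2 pneumocytes, which show the lung, summed to 4091 normalized counts in replicate 9 and 15980 to 29330 in the other libraries. Markers of hepatocytes summed to 358700 in replicate 9, 99240 in replicate 41 and 26950 to 57590 elsewhere, and markers of skeletal muscle to 252400 in replicate 41 and 35910 to 144200 elsewhere. All 15 hepatocyte markers tested were highest in replicate 9, and all 6 skeletal muscle markers tested were highest in replicate 41. Of the 6 heart muscle markers found, TNNT2 and NPPA were at 0 in all libraries. The heart muscle markers summed to 9409 in replicate 41 and 1408 to 5092 elsewhere, and all 3 tested were highest in replicate 41.

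No ribosomal protein gene passed the test of the doses by limma. It was run on log2(normalized count + 1) over the 12446 genes with a mean over 20, and 0 of the 55 members passed an adjusted p of 0.05, as did 0 (0.00%) of all genes tested. The adjusted p of the members ran from 0.401 to 0.970. At an unadjusted p under 0.05, 1 of 55 members was higher and 0 were lower, while 5.57% of all genes were higher and 6.60% were lower. The members' groups overlapped in all 55 cases, where 3.81% of all genes had groups that did not overlap. edgeR on the recovered reads also called 0 members and 0 genes (0.00%). It had 1 member higher, RPL23A, and 1 lower, RPS21, at an unadjusted p under 0.05, beside 4.19% of all genes higher and 10.9% lower. Of the 195 genes (1.57%) that DESeq2 called on these reads 0 were members, and the same 2 members had an unadjusted p under 0.05, beside 4.29% of all genes higher and 9.33% lower. In mixed tissue, fewer cells of a type and less RNA per cell cannot be told apart, and this holds for every level given here.

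The log2 fold changes, which are differences of mean log2 levels, increased minus standard dose, lay between -0.86 and 0.69. Their median was 0.23, while the median over all genes tested was 0.0084. They were above 0 for 41 of 55 members and for 50.8% of all genes. The large subunit genes (median 0.22, 21 of 24 above 0) and the small subunit genes (median 0.24, 17 of 26 above 0) had similar medians. The 95% intervals of the single members reached a median of 0.62 to either side, so most differences of this size were not detectable with 4 and 5 animals. Without standard dose replicates 9 and 41 the median of the members was -0.14, and 8 of 55 log2 fold changes were above 0, against 48.4% of all genes. Of the 703 genes tested with a mean over 1000, 385 were above 0 with all libraries (median 0.050). Without both replicates 252 of them were (median -0.076). For the 48 members among them these counts were 37 (median 0.23) and 4 (median -0.15). The median of the 55 members was 0.12 without replicate 9 alone and 0.11 without replicate 41 alone. Its sign thus changed when both were left out and not when either was.

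**Figure D1:**
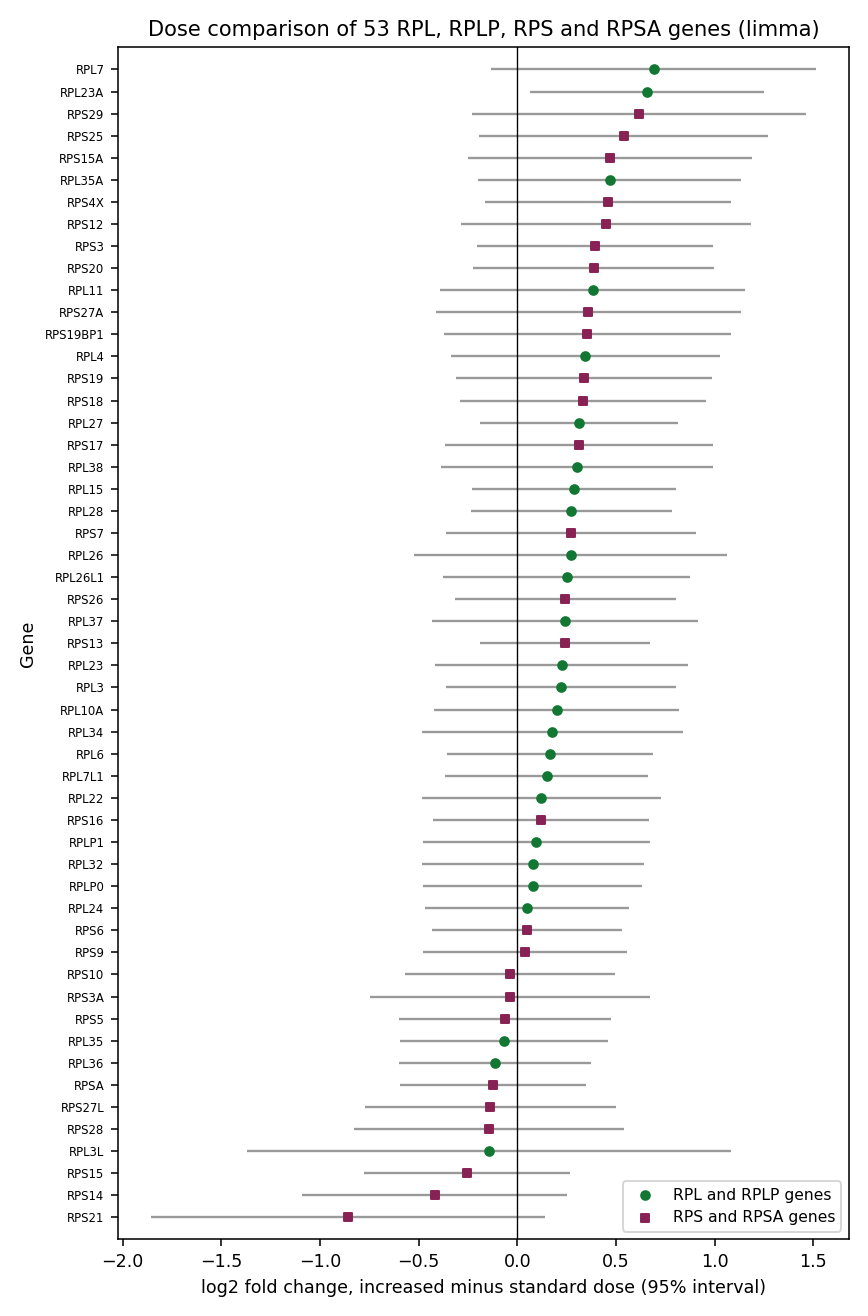
Log2 fold change of 53 of the 55 members tested, increased minus standard dose, from limma on log2(normalized count + 1). Points are estimates and lines are 95% intervals, not adjusted for the number of genes; the estimates run from -0.86 for RPS21 to 0.69 for RPL7, and of those drawn only the interval of RPL23A lies wholly above 0.

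The members took a variable part of each library. Their share of the reads in genes was 3.19%, 7.31%, 7.20% and 4.53% in standard dose replicates 9, 17, 33 and 41. It was 5.39%, 7.52%, 6.45%, 6.50% and 7.65% in increased dose replicates 3, 19, 27, 51 and 59. Replicates 9 and 41 were the lowest of the 9 and increased dose replicate 3 came next, so the groups overlapped. The means were 5.56% ± 2.04 (SD, n = 4) and 6.70% ± 0.922 (SD, n = 5), a difference of 1.14 percentage points, which was smaller than the spread of the standard group. Without replicates 9 and 41 the difference was -0.55 points. All RPL and RPLP members, paralogs included, took 1.21% to 3.12% of the reads in the standard group and 2.23% to 3.28% in the increased-dose group. All RPS and RPSA members, with RPS27L and RPS19BP1 among them, took 1.98% to 4.19% and 3.16% to 4.42%. The difference was 1.07 points when the reads of the hepatocyte, skeletal muscle and heart muscle markers were left out of the totals. Only the listed markers were left out, and any other transcripts of such tissues stayed in. The part that these marker levels have in the low shares was not tested.

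**Figure D2:**
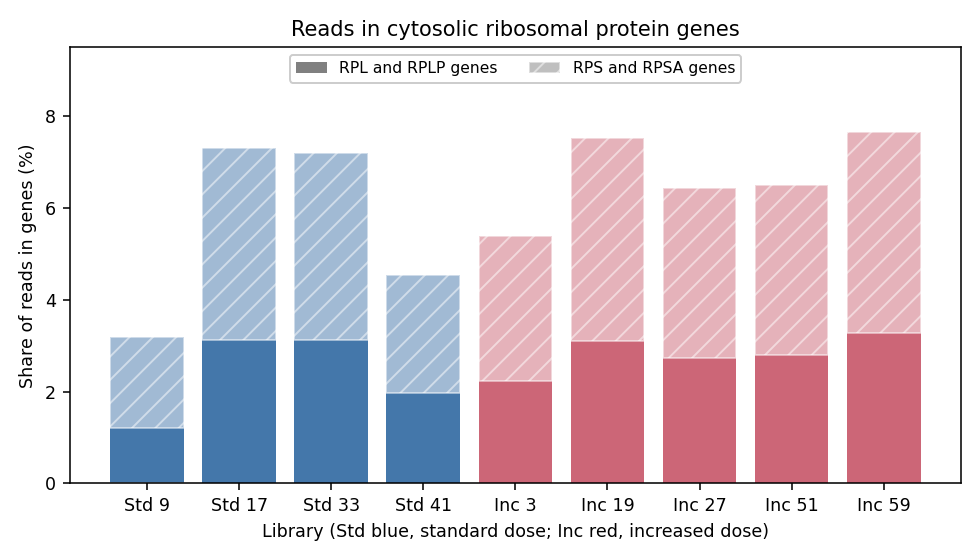
Share of the reads in genes that fell in the members, for each library (percent), with RPL and RPLP genes below and RPS and RPSA genes above in each bar. Standard dose replicate 9 has 3.19% and replicate 41 has 4.53%, and the other 7 libraries lie between 5.39% and 7.65%.

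Most members moved together from library to library. In standard dose replicate 9, 43 of 55 members were below their own median over the 9 libraries, with a median distance of -0.52 on the log2 scale. In replicate 41 this held for 45 members, with a median of -0.59, and in increased dose replicate 3 for 50 members, with a median of -0.34. Replicate 27 of the increased dose had 37 members below, but by a median of only -0.047. Standard dose replicates 17 and 33 had 44 and 43 members above their own median, and increased dose replicates 59 and 19 had 47 and 42, so both groups held libraries in which most members were high. The lowest value of a member was in replicate 9 for 23 members and in replicate 41 for 21, and for all genes tested these libraries held the lowest value in 21.3% and 22.4% of cases. Increased dose replicate 3 held it for 6 members and 7.16% of all genes. The highest value was in increased dose replicate 19 for 24 members and 13.1% of all genes, and in standard dose replicate 9 for 6 members and 29.1% of all genes. Of the 703 genes tested with a mean over 1000, 167 were highest in replicate 19 and 229 in replicate 9. The lowest value of these 703 was in replicate 9 for 226 and in replicate 41 for 176. For the 48 members among them the same 4 counts were 24, 3, 21 and 18. Of the 14 members with a pyrimidine run over the start, 13 had a log2 fold change above 0 (median 0.26), and of the other 41 tested, 28 did (median 0.18). The median distance in replicates 9 and 41 was -0.72 and -0.82 for the members with the run, and -0.48 in both for the others. These are descriptions, and the difference between the sets was not tested.

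**Figure D3:**
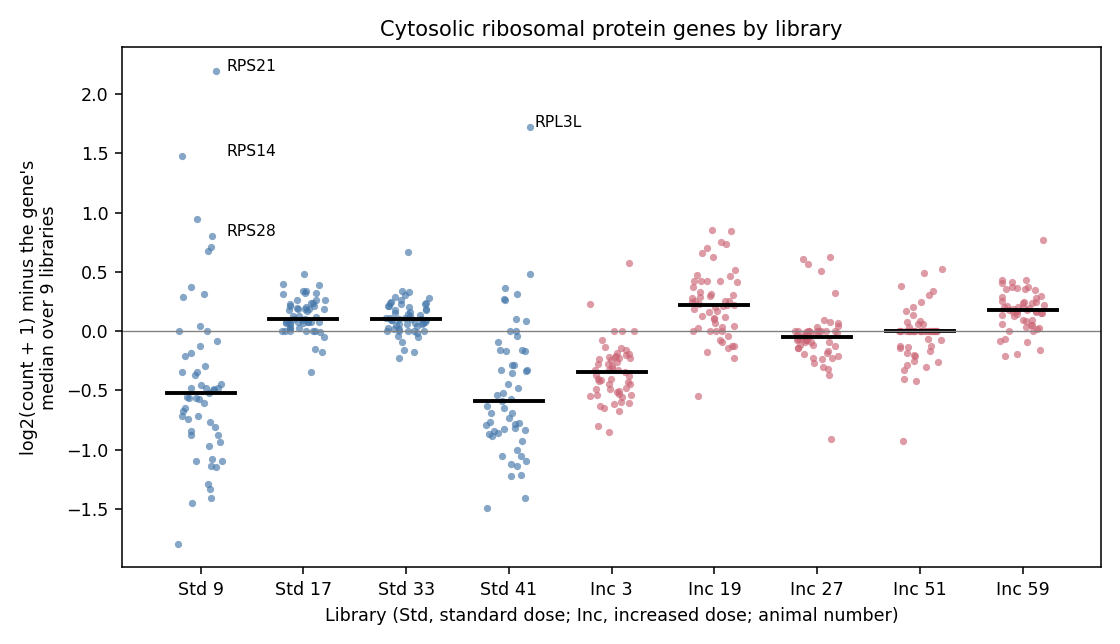
Log2(normalized count + 1) of each of the 55 members minus the gene's own median over the 9 libraries, by library. Points are genes and bars are medians, which are -0.52 in standard dose replicate 9, -0.59 in replicate 41 and -0.34 in increased dose replicate 3; RPS21, RPS14 and RPS28 lie high in replicate 9 and RPL3L in replicate 41.

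The spread within groups was close to that of other genes of like level. The median within-group SD of log2 levels was 0.42 over the members and 0.52 over all genes tested. Among genes with a mean over 1000 it was 0.42 for 48 members and 0.45 for all 703. The coefficient of variation over the 9 libraries had a median of 26.4%. Among the smallest were RPS13 (13.8%) and RPS6 (14.1%), and it was largest for RPS21 (88.9%), RPL3L (75.1%) and RPS14 (51.9%). RPS13 had 1939 to 2511 normalized counts in the standard group and 2156 to 2901 in the increased-dose group, with a log2 fold change of 0.24 (95% interval -0.19 to 0.67, limma adjusted p 0.596). RPS6, whose protein is the classical substrate of the S6 kinases, had 4427 to 6215 and 4370 to 6560, with a log2 fold change of 0.049 (95% interval -0.43 to 0.53). Without replicates 9 and 41 these log2 fold changes were 0.097 for RPS13 and -0.14 for RPS6.

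RPS29, a zinc-binding protein of the small subunit and the control gene of the study's PCR, lies on chromosome 1 from 179454928 to 179461631 of Sscrofa11.1 in the authors' annotation. Its normalized counts were 8833, 20269, 19675 and 6113 in standard dose replicates 9, 17, 33 and 41. They were 14519, 29296, 15667, 16189 and 20619 in increased dose replicates 3, 19, 27, 51 and 59. The 2 lowest values were both in the standard group and the highest in increased dose replicate 19, but replicates 17 and 33 lay above 3 of the 5 increased-dose libraries. The means were 13723 ± 7305 (SD, n = 4) and 19258 ± 6070 (SD, n = 5), and the log2 fold change was 0.62 (standard error 0.39, 95% interval -0.23 to 1.46, limma adjusted p 0.485). The exact two-sided permutation test of dose labels gave p = 0.206, where the smallest p that this design can give is 0.00794. The log2 fold change was 0.29 without replicate 41 and -0.10 without replicates 9 and 41.

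The other members used as reference genes gave smaller differences. RPLP0, which carries the P stalk that binds elongation factors, had 6394, 10299, 11446 and 7659 normalized counts in the standard group and 7165, 9761, 10005, 9276 and 10126 in the increased-dose group, in the same order of replicates. Its log2 fold change was 0.077 (95% interval -0.48 to 0.63, exact permutation p = 0.730). RPL32 was at 3610 ± 1001 (SD, n = 4) and 3758 ± 720 (SD, n = 5), with a log2 fold change of 0.079 (95% interval -0.48 to 0.64, exact permutation p = 0.738). For both genes the groups overlapped and the standard group held both the lowest and the highest library. RPS18, a protein at the head of the small subunit, was at 3319 ± 1161 and 4070 ± 1032, with a log2 fold change of 0.33 (95% interval -0.29 to 0.95, exact permutation p = 0.302). RPL4, which lines the exit tunnel of the nascent protein, was at 5532 ± 2144 and 6806 ± 1659, with a log2 fold change of 0.34 (95% interval -0.34 to 1.03, exact permutation p = 0.278). RPL13A, which is among the genes without a name, had a log2 fold change of 0.035 and 6769 to 12643 normalized counts over the 9 libraries. All 5 log2 fold changes were below 0 without replicates 9 and 41, at -0.24 for RPLP0, -0.26 for RPL32, -0.11 for RPS18, -0.15 for RPL4 and -0.28 for RPL13A. Leaving out replicate 9 alone gave 0.12 for RPS18 and 0.13 for RPL4.

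The most abundant members included RPS12, RPS27A, RPS29 and RPS28, all of the small subunit. RPS12 had 8243, 20040, 21599 and 13953 normalized counts in the standard group and 12996, 24506, 20720, 21932 and 24380 in the increased-dose group. Here replicate 9 was lowest, and 4 of the 5 increased-dose libraries were above both replicates 9 and 41. RPS27A is made as a fusion with ubiquitin, and had 8943 to 23582 and 14073 to 24971 normalized counts. The groups of RPS27A overlapped too. The log2 fold changes of RPS12 and RPS27A were 0.45 (95% interval -0.29 to 1.19) and 0.36 (-0.41 to 1.13), and without replicates 9 and 41 they were -0.029 and -0.28. With array weights, which give less weight to libraries that vary more, that of RPS27A was -0.12.

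**Figure D4:**
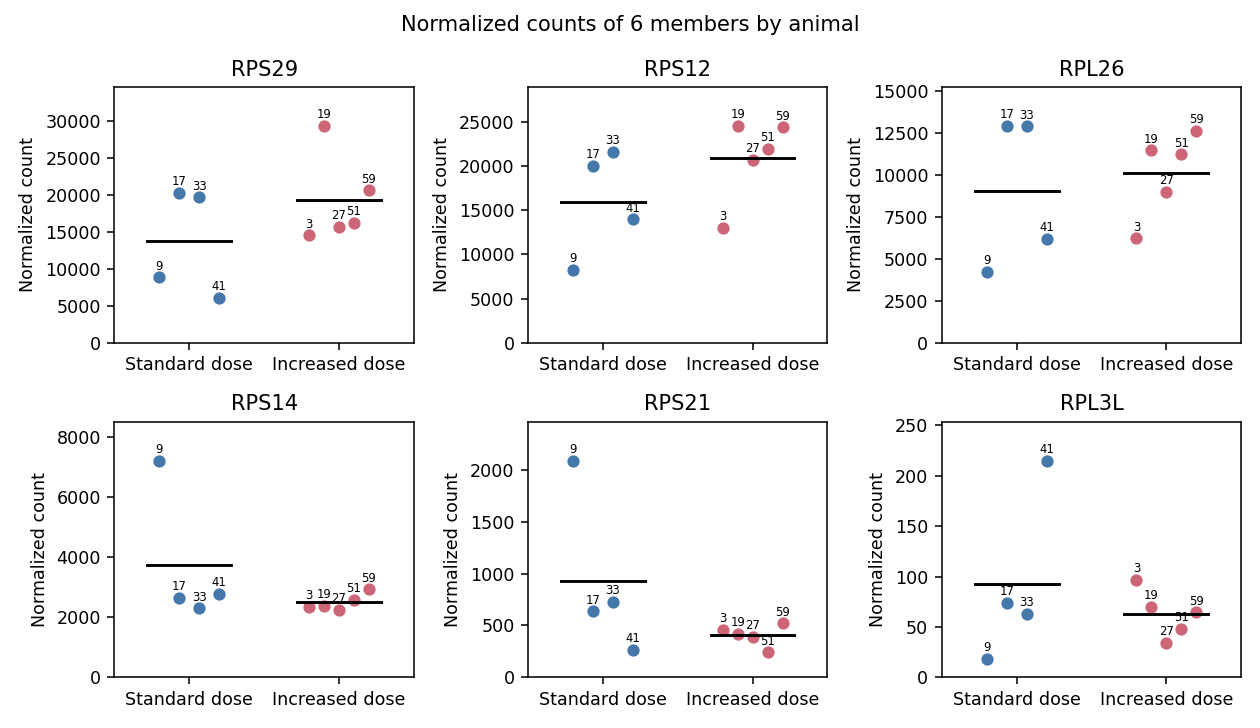
Normalized counts of 6 members in each animal, numbered by replicate, with bars at the group means. In RPS29, RPS12 and RPL26 the low standard-dose points are replicates 9 and 41, while RPS14 (7198) and RPS21 (2087) are highest in replicate 9 and RPL3L (215) is highest in replicate 41.

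The 5 members with the largest positive log2 fold changes were RPL7, RPL23A, RPS29, RPS25 and RPS15A. RPL7 had 1165, 3713, 3228 and 1368 normalized counts in the standard group and 2094, 5340, 3029, 3177 and 4061 in the increased-dose group. Replicates 9 and 41 were below all other libraries, and replicates 17 and 33 lay within the increased-dose range. The log2 fold change was 0.69 (standard error 0.38, 95% interval -0.13 to 1.51, limma adjusted p 0.443), and -0.037 without those 2 libraries. RPL23A, which sits at the mouth of the exit tunnel where the signal recognition particle docks, had 595, 586, 650 and 323 in the standard group and 564, 665, 960, 933 and 1109 in the increased-dose group. Of the 5 increased-dose libraries, 4 lay above all standard libraries and replicate 3 lay among them. Its log2 fold change was 0.66 (standard error 0.27, 95% interval 0.062 to 1.25), with an unadjusted p of 0.0331, an adjusted p of 0.401 by limma and an exact permutation p of 0.0873. It was 0.41 without replicates 9 and 41, and 0.43 to 0.79 when each library was left out in turn. RPL23A overlaps a gene on the other strand, and the strand setting of the counting is not given in the sources used here. RPS25, a protein at the head of the small subunit, and RPS15A had log2 fold changes of 0.54 (95% interval -0.19 to 1.27) and 0.47 (-0.25 to 1.19), and -0.035 and -0.13 without the 2 libraries.

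**Figure D5:**
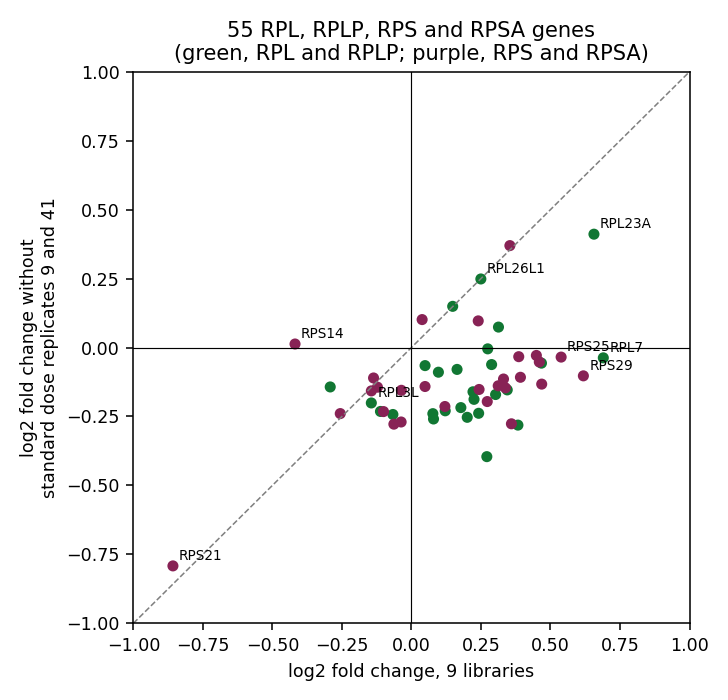
Log2 fold change of the 55 members over all 9 libraries (horizontal) and without standard dose replicates 9 and 41 (vertical), with a dashed line where both are equal. Of the 41 members right of 0, most fall below 0 on the vertical axis, where 8 of 55 are above 0, and RPL23A (0.66 and 0.41) and RPS21 (-0.86 and -0.79) stay far from it.

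The 6 members highest in standard dose replicate 9 were RPS21, RPS14, RPS28, RPS15, RPS27L and RPS19BP1, the last at 178 normalized counts. RPS21, a small subunit protein that in yeast takes part in the maturation of the subunit's RNA, had 2087, 634, 725 and 264 normalized counts in the standard group and 455, 417, 388, 239 and 520 in the increased-dose group. Replicate 9 was several times above the other libraries, which overlapped between groups. The log2 fold change was -0.86 (standard error 0.46, 95% interval -1.85 to 0.14), with a limma adjusted p of 0.435, and the exact permutation p was 0.183. It was -0.34 without replicate 9, -1.33 without replicate 41 and -0.79 without both. The adjusted p of RPS21 was 0.270 by edgeR and 0.192 by DESeq2.

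RPS14, a protein on the platform of the small subunit whose loss underlies the anaemia of a human chromosome deletion syndrome, had 7198, 2634, 2294 and 2777 normalized counts in the standard group. The increased-dose libraries had 2341, 2374, 2232, 2585 and 2926. Apart from replicate 9 the 8 values lay in a narrow band in which the groups overlapped. The log2 fold change was -0.42 (95% interval -1.09 to 0.25, exact permutation p = 0.230), and it was -0.046 without replicate 9. RPS28, a protein at the exit of the mRNA channel, had 20874 in replicate 9 and 7040 to 14528 elsewhere. RPS15, beside the decoding centre, had 6521 in replicate 9 and 3264 to 4646 elsewhere. RPS27L, the p53-induced paralog of RPS27, had 1452 in replicate 9 and 438 to 816 elsewhere. The log2 fold changes of these 3 genes were -0.14, -0.26 and -0.14, and without replicate 9 they were 0.11, -0.084 and 0.16. Replicate 9 is the library in which the hepatocyte markers summed to 358700, and the part of this in the high members was not tested.

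RPL3L is the paralog of RPL3 that replaces it in the ribosomes of skeletal and heart muscle. It had 17.9, 74.1, 62.6 and 215 normalized counts in the standard group and 96.8, 69.9, 34.0, 48.4 and 64.5 in the increased-dose group. The highest and the lowest value were both in the standard group, in replicates 41 and 9. Per 1000 counts of RPL3 this was 138 in replicate 41, 7.0 in replicate 9 and 10.5 to 40.0 in the other libraries. Skeletal muscle markers were also highest in replicate 41 (252400) and lowest in replicate 9 (35910), and their part in the level of RPL3L was not tested. The log2 fold change was -0.14 (95% interval -1.37 to 1.08), with -0.56 by edgeR and by DESeq2. It was -0.75 without replicate 9, 0.42 without replicate 41 and 0.051 without increased dose replicate 27.

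RPL26L1 and RPL7L1 were also scarce beside their parent genes. RPL26L1 had 64.0 to 134 normalized counts over the 9 libraries, which was 27.2 per 1000 counts of RPL26 in replicate 9 and 5.59 to 15.2 in the others. RPL26 itself, a protein at the tunnel mouth that in human cells also binds p53 mRNA, had 4222, 12875, 12867 and 6176 in the standard group and 6208, 11438, 8951, 11196 and 12596 in the increased-dose group. Its log2 fold change was 0.27 (95% interval -0.52 to 1.06), and it was -0.40 without replicates 9 and 41. RPL7L1, a nucleolar relative of RPL7, had 148 to 256, or 46.0 to 187 per 1000 counts of RPL7. The 187 was in replicate 41, where RPL7 was low. RPL22, RPS4X and RPL3, which have close relatives of their own, had log2 fold changes of 0.12, 0.46 and 0.22, and -0.23, -0.052 and -0.16 without the 2 libraries. Reads of near-identical copies and pseudogenes, which are many for this family, could not be separated from those of the parent genes here, so levels of paralogs are uncertain.

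RPS3A, at the exit of the mRNA channel, was an exception among the abundant members. It had 3757, 9056, 9184 and 11606 normalized counts in the standard group and 5445, 7862, 7516, 8293 and 9273 in the increased-dose group. Replicate 41, where most members were low, held its highest value. Its gene in the authors' annotation runs from 77889607 to 78023346 on chromosome 8, which is the longest span of all members at 133740 bases, and it overlaps 2 genes on the other strand. The median span of the members was 5863.5 bases, against 27268 for the protein-coding genes tested. Genes of snoRNA, scaRNA, miRNA, snRNA and miscellaneous RNA were left out of these overlap counts. Among the other gene types, 9 members overlap at least 1 gene on the other strand and 0 a gene on the same strand. The 56 genes are spread over 15 chromosomes.

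The 19 ribosomal protein genes without a name in the table, found by gene identifier or description after values had been seen, had a similar pattern over the libraries. They include RPL5, which with RPL11 forms the particle of the 5S RNA, and RPLP2 of the stalk. Their median log2 fold change was 0.30, with 13 of 19 above 0, and -0.14 with 1 of 19 above 0 without replicates 9 and 41. Their lowest value was in replicate 9 for 6 genes, in replicate 41 for 9 and in increased dose replicate 3 for 4. RPL37A had 4143, 10617, 10151 and 3809 normalized counts in the standard group and 6972, 13936, 8170, 8341 and 10758 in the increased-dose group. Its 2 lowest values were thus in replicates 9 and 41, and its log2 fold change was 0.54, or -0.15 without them. RPL10, RPL27A and RPL8 went the other way and were highest in replicate 9. They had 16940, 16381 and 6509 there, against 5424 to 9371, 6686 to 9709 and 2837 to 4369 elsewhere. With these 19 genes added, the share of reads ran from 4.55% in replicate 9 to 10.0% in increased dose replicate 59.

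Among the other genes of translation, limma called 0 of each list, and at an unadjusted p under 0.05 the lists held 0 to 3 genes. The median log2 fold change was -0.18 for 6 elongation factors, 0.12 for 32 initiation factors, 0.12 for 20 other TOP mRNAs and 0.084 for 35 factors of ribosome assembly. It was -0.061 for 15 genes of RNA polymerase I and its partners, -0.079 for 15 genes of ribosome quality control, 0.033 for 22 regulators of these genes and of TOP mRNAs and -0.045 for 64 mitochondrial ribosomal proteins. Without replicates 9 and 41 the medians were -0.019 for the other TOP mRNAs, 0.042 for RNA polymerase I, -0.0092 for quality control, 0.013 for the regulators and 0.023 for the mitochondrial proteins, of which 63 were then tested. They were -0.19, 0.090 and 0.090 for elongation factors, initiation factors and assembly. Of the ribosomal proteins whose names the rule leaves out, RACK1 had a log2 fold change of 0.15 and FAU of -0.48, and without replicate 9 these were 0.023 and -0.16. The elongation factor EEF1B2, itself a TOP mRNA, had 6325 ± 1535 (SD, n = 4) and 6692 ± 1944 (SD, n = 5) normalized counts. Its log2 fold change was 0.068, and that of EEF2 was -0.049. The first was -0.17 without replicates 9 and 41, and the second 0.057 without replicate 9. The mitochondrial ribosomal protein genes had their lowest value in replicate 9 in 5 of 64 cases and their highest there in 29, where the cytosolic members had 23 and 6 of 55.

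A few of these genes had groups that did not overlap, beside 1.80% of all genes higher and 2.01% lower in this way. They were chosen here after their values were seen. The initiation factors EIF4A1, EIF4A3, EIF4G2 and EIF4H were higher in all increased-dose libraries, 4 of the 32 tested, with log2 fold changes of 0.56, 0.41, 0.65 and 0.64 and limma adjusted p of 0.397 to 0.418. Without replicates 9 and 41 the log2 fold changes were 0.37, 0.34, 0.53 and 0.41. EIF4G2, which starts cap-independent translation, had 667 to 1011 normalized counts in the standard group and 1208 to 1365 in the increased-dose group. RHEB, the GTPase that activates mTORC1, had 75.0 to 106 and 112 to 256 normalized counts, with a log2 fold change of 1.04 (standard error 0.27). Its adjusted p was 0.397 by limma and 0.0475 by DESeq2, and its log2 fold change was 1.06 without replicates 9 and 41. The TOP mRNAs VIM and HNRNPA1 (0.82 and 0.75) and POLR1C of the RNA polymerases (0.94) were also higher without overlap, and LARP4 (-0.38), a binder of poly(A) tails, was lower. MRPL38 of the mitochondrial ribosome was also lower without overlap (-0.65), 1 of the 64 tested. Without replicates 9 and 41 the log2 fold changes were 0.50 for VIM, 0.35 for HNRNPA1, 0.43 for POLR1C, -0.15 for LARP4 and -0.32 for MRPL38. No ribosomal protein gene among the 55 members was in this set.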

How the data were processed

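Lung RNA of 9 pigs was sequenced, 4 on the standard and 5 on the increased dose, after the authors rejected 1 of 10 libraries. The authors checked reads with FastQC, trimmed them with FLEXBAR and mapped them to Sscrofa11.1 with TopHat, with gene counting by HTSeq-count on an Ensembl annotation. The deposited values are a signal, namely read counts per gene after the authors scaled each library by its DESeq2 size factor. The deposited log2 fold changes, the score of the Wald test and the p-values are those of the authors from DESeq2, and none was used. Replicate 33 is so named in its title, but its column gives 31, and the title was followed.

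Genes with a mean over 20 were tested with limma 3.58.1 (trend) on log2(value + 1), two-sided, with Benjamini-Hochberg adjustment over 12446 genes and a threshold of 0.05. Single members were also tested by exact permutation over libraries. Reads were recovered by division, and their number covers counting error only. No pair of libraries of a group agreed within sampling noise (chi-square per degree of freedom 10.9 to 153). The labels name no batch. Other settings tried were pseudocounts of 0.5 and 5, the absence of a filter or 10 counts in 4 libraries, TMM, quantile and total scaling, robust variances, array weights, edgeR 4.0.16 and DESeq2 1.42.0 on the reads, and libraries left out. The software was R 4.3.3 and Python 3.11.15, with pandas 2.3.3, numpy 2.4.6, matplotlib 3.10.9 and scipy 1.17.1. The fit was tested on simulated data before use.

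The members and all gene lists were chosen with earlier results of these data known. The members named are those used as reference genes, RPS3A and RPL37A, the 5 with the largest change in each direction, the 5 with the highest mean, the paralogs with their parents, and the 3 with the largest and the 3 with the smallest coefficient of variation. Of the other lists, the 3 genes with the highest mean were picked out, of which the text gives some. RPS28, RPS27L, RPL10, RPL27A and RPL8 in replicate 9, and the genes whose groups did not overlap, were described after their values were seen. Start sites are those of RefSeq for Sscrofa11.1, and 33 of 56 rest on curated transcripts. Methylation data, quantitative PCR and protein sequences are not analysed here, and some genes that the naming rule picks are not reported here.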

Additional observations from a re-analysis of the deposited data

Results flagged for a closer look

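Of 60 groups of library values examined for an extreme library, 2 had a lowest or highest library farther from its neighbour than the limit for that number of libraries, and chance alone flags about 1 in 20 groups. RPLP0 at the increased dose was lowest in replicate 3, with 7165 normalized counts where the next library had 9276. The gap was 0.713 of the range. RPS14 at the standard dose was highest in replicate 9, with 7198 normalized counts where the next had 2777, a gap of 0.902 of the range. Increased dose replicate 3 was below the median of its own gene in 50 of 55 members, so its low RPLP0 went with most of the family, while the RPS14 value of replicate 9 went against it.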

How the results depend on the processing

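The count of members called was 0 under every alternative run, and the count of all genes called was 0 except with DESeq2 on the recovered reads (195) and with array weights (2). The median log2 fold change of the members was 0.23 and moved to -0.0764 with array weights, where 19 of 55 were above 0, and to -0.14 without standard dose replicates 9 and 41, where 8 were; the share of reads then differed by -0.55 points. When single libraries were left out the median ran from 0.11 to 0.34, the members above 0 from 35 to 45 and the difference in share from 0.35 to 1.73 points. Scaling to total reads moved the median of all genes to 0.19 and that of the members to 0.40, with 51 of 55 above 0 but 41 above the median of all genes, and quantile normalization gave 0.37 with 49 above 0. The sign of many members depended on the setting: of 26 named members tested, 16 changed sign without both replicates, 8 with array weights, 4 with total scaling and 2 with quantile normalization, and 0 with the other settings that kept all libraries. Over all 55, the sign changed for 20 when 1 library was left out. Among the named members that kept their sign in all settings were RPL23A above 0, and RPS21 and RPS15 below 0.

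Without both replicates the log2 fold changes that changed sign were -0.10 for RPS29, -0.24 for RPLP0, -0.11 for RPS18, -0.15 for RPL4, -0.26 for RPL32, 0.0127 for RPS14, -0.13 for RPS15A, -0.0347 for RPS25, -0.0374 for RPL7, -0.28 for RPS27A, -0.0287 for RPS12, -0.23 for RPL22, -0.40 for RPL26, -0.16 for RPL3, -0.0525 for RPS4X and -0.14 for RPS6. With array weights they were -0.13 for RPLP0, -0.0438 for RPS18, -0.18 for RPL32, -0.12 for RPS27A, -0.12 for RPL22, -0.23 for RPL26, -0.0713 for RPL3 and -0.0526 for RPS6. With total scaling they were 0.14 for RPS3A, 0.0258 for RPL3L, 0.0346 for RPS28 and 0.0424 for RPS27L, and with quantile normalization 0.16 for RPS3A and 0.11 for RPS28. When single libraries were left out, the lowest and highest values were -0.0720 and 0.21 for RPLP0, -0.11 and 0.21 for RPL32, -0.39 and 0.16 for RPS3A, -0.75 and 0.42 for RPL3L, -0.41 and 0.11 for RPS28, -0.0879 and 0.27 for RPL22, -0.0426 and 0.49 for RPL26, -0.0247 and 0.36 for RPL3, -0.42 and 0.16 for RPS27L, and -0.0334 and 0.13 for RPS6. The causes were not tested.

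No paired analysis was possible because the groups share no replicate numbers. With 4 and 5 animals the intervals of single members spanned a median of 0.62 on the log2 scale to either side. These intervals are not adjusted for the number of genes, so they do not set the size of a difference that could be called. RPL23A and RPL7 had log2 fold changes of 0.66 and 0.69, but limma adjusted p of 0.401 and 0.443.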
